A study of Mus musculus with 2 samples.

Results

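The 9 genes described here are Retnla and Retnlg, which encode resistin-like secreted proteins, Chil3, Chil4 and Chil1, which encode chitinase-like secreted proteins, Arg1, which encodes arginase, and Mrc1, Mgl2 and Clec10a, which encode lectin receptors of macrophages and dendritic cells. They were chosen by name as genes used to describe alternatively activated (M2) macrophages, and found by matching each probe's accession to a gene symbol. Each of the 9 had 1 probe matched in this way, with 1 spot. All 9 passed the scanner software's background flag on both arrays, Arg1 on both and Retnla on the SiO2 array only narrowly, out of 16774 named genes above background on at least 1 array. The study hybridised RNA of mouse spleens to 2 one-colour arrays. The first held RNA of spleens remodelled with silica (SiO2) and the other RNA of spleens given phosphate-buffered saline (PBS) as the control. On each array, 5 spleens were pooled, all from females and harvested 19 days after injections began, and strain, age and genotype are not given in the sources used here. Pooling leaves 1 value per group, so no spread between animals, no test and no p-value can be given.

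Macrophages that receive the type 2 cytokines interleukin-4 and interleukin-13 switch on a set of genes through the receptor chain Il4ra and the transcription factor Stat6. In mice this set includes Retnla, Chil3 and Arg1, and the mannose receptor Mrc1 and the galactose-type lectins Mgl2 and Clec10a are used as surface markers of such cells. Several of these genes are not restricted to macrophages. Chil3 and Retnlg are also made by maturing neutrophils, Retnla by macrophages of the body cavities and by adipose tissue, and Mgl2 by dendritic cells. The spleen holds all of these cell types or adjoins them.

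Values below are the processed signal of the spot, in the scanner's intensity units, and the difference is log2 of the SiO2 signal minus log2 of the PBS signal after each was divided by the 75th percentile of its array. That percentile was a signal of 469 on the SiO2 array and 669.5 on the PBS array, so equal signals on both arrays appear 1.43-fold higher in the SiO2 pool after scaling. Only technical error can be had from these files. Among repeated probes above background, the standard deviation of the log2 difference over spots had a median of 0.13 for 77 probes with a mean signal under 100, 0.057 for 105 probes between 100 and 1000 and 0.045 for 92 probes over 1000. The scanner software's own error estimates, carried to the log2 difference, were 0.20 to 0.33 for the 9 genes. The labelled tissue was checked against 12 B and T cell markers, all of which were above background on both arrays, with a median log2 difference of -0.39.

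The 9 genes did not differ as a block. The chitinase-like genes Chil4, Chil3 and Chil1 were 5.33-fold, 5.06-fold and 3.64-fold higher in the SiO2 pool, while the resistin-like gene Retnla was 18.0-fold lower. Its family neighbour Retnlg was 1.80-fold higher. Arg1 and the lectin receptors Mrc1, Mgl2 and Clec10a were all within 2-fold. Thus 3 of the 9 were at least 2-fold higher, beside 6.62% of all named genes, and 1 was at least 2-fold lower, beside 3.69%. Taking both directions, 4 of 9 were past 2-fold, beside 10.3% of all named genes. At 4-fold, 2 of 9 were higher (0.948% of all named genes) and 1 lower (0.483%). The 9 were chosen with earlier results of these data known, so these counts are no independent evidence. The median log2 difference of the 9 was 0.13, beside 0.03 over all named genes, and 5 lay above 0 and 4 below. In the order of the 16774 genes from highest to lowest difference, Chil4 was number 65, Chil3 number 81 and Chil1 number 192. Retnla was number 4 from the lowest. In bulk tissue, a change in the number of cells that make a message and a change in the message per cell cannot be told apart.

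**Figure D1:**
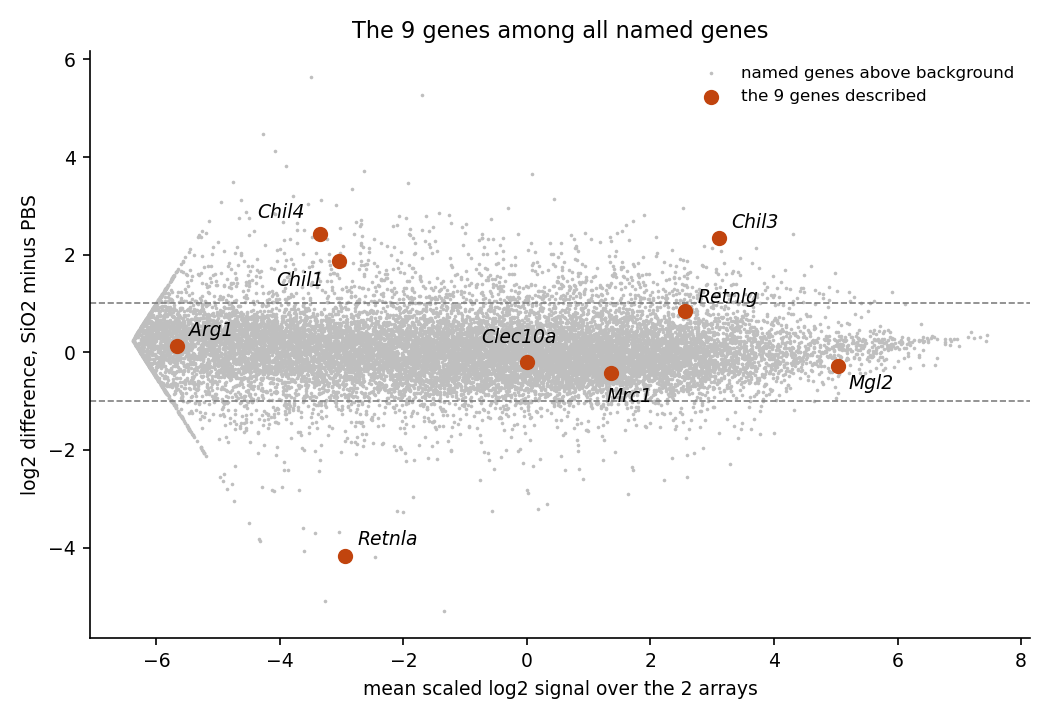
Log2 difference (SiO2 minus PBS, vertical axis) against the mean scaled log2 signal over the 2 arrays (horizontal axis) for all named genes above background (grey) and the 9 genes described (red, labelled); dashed lines mark 2-fold. Chil3, Chil4 and Chil1 lie above the upper line and Retnla, at -4.17, near the bottom of the cloud, while the other 5 lie between the lines.

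Retnla encodes resistin-like molecule alpha, a small secreted protein that interleukin-4 induces in mouse macrophages. Its signal was 14.4 in the SiO2 pool and 370 in the PBS pool. The difference was -4.17 on the log2 scale, with a software error of 0.25, which made Retnla 18.0-fold lower in the SiO2 pool after scaling and 25.7-fold lower before it. The SiO2 value was close to the limit of the array, at 2.35 times the lowest signal of any probe above background there. The unsubtracted spot read 31.0 over a local background of 11.5 on the SiO2 array and 364.5 over 13 on the PBS array. The size depended on the background correction, and with normexp the difference was -2.06. Normexp also moved the median of all named genes from 0.03 to 0.18, which bears on every normexp value given here. Retnla was lower by more than 2-fold under all 9 listed alternative processings, with log2 differences from -4.26 to -2.06. Those that changed only the background filter or averaged a gene's probes could not change its value. The same held for the other genes described, each with 1 matched probe above background on both arrays.

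Retnlg encodes resistin-like molecule gamma, which in mice is made in blood-forming tissue and neutrophils. Its signal was 3705 in the SiO2 pool and 2940 in the PBS pool, a log2 difference of 0.85 (1.80-fold higher) with a software error of 0.20. Before scaling the ratio was 1.26. Retnlg stayed under 2-fold in all 9 listed alternatives (0.77 to 0.85), including those that could not change its value. It was past 2-fold only when the SiO2 array was shifted to bring the median of B and T cell markers (1.24) or of macrophage markers (1.45) to 0, both chosen after the data were seen.

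Retnla and Retnlg lie next to each other on mouse chromosome 16 with 0 protein-coding genes between them, and their signals differed in opposite directions. Their upstream sequences, the 250 bases before each annotated start, are shown for the block that the pair shares. They come from RefSeq (build GRCm38.p6, 5′ to 3′ on the gene's strand), where 7 of the 9 genes matched. Capitals mark motif matches found on either strand.
Retnla (chr16:48842359-48842608, plus strand): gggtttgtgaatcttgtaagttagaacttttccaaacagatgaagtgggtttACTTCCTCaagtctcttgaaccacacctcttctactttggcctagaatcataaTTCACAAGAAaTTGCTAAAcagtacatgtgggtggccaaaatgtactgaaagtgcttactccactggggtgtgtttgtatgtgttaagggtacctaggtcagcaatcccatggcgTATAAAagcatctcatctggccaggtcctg
Retnlg (chr16:48872358-48872607, plus strand): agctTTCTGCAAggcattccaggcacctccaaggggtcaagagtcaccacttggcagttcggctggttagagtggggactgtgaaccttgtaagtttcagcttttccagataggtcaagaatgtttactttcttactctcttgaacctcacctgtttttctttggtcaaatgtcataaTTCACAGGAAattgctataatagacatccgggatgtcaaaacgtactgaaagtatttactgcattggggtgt

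The best local alignment of these sequences held 135 identical bases in 177 columns (76.3%). It paired Retnla bases -250 to -74 with Retnlg bases -176 to -1, counted from the annotated start. For the 19 other pairs among the 7 promoters, other than that of Chil3 and Chil4, the identical bases ran from 89 to 130, mostly over longer alignments. Within the shared block each promoter had the letters of a STAT6 motif, TTCNNNNGAA, which reads the same on both strands. The match was TTCACAAGAA at -145 to -136 in Retnla and TTCACAGGAA at -72 to -63 in Retnlg, and it was absent from the other 5 promoters in this window. Of all 32851 promoters in the table, 5.85% held this motif in their 250 bases. In Retnla a C/EBP motif, TTGCNNAA, followed at -134 to -127, without overlap, whereas the C/EBP match of Retnlg lay far upstream at -246 to -239. Across all promoters 9.56% held that motif. Retnla also had the ETS motif GAGGAAGT, on the other strand at -198 to -191 (2.44% of all promoters), and the TATA letters TATAAA at -30 to -25 (12.4%). The TATAAA lay beyond Retnla base -74, where the Retnlg window ended in the alignment, so the pair was not compared there. A match describes letters and is no evidence of binding.

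The third resistin-like gene of this cluster, Retnlb, which is known from the gut epithelium, was not above background on either array. Resistin itself, Retn, an adipose hormone in mice, had signals of 15.6 in the SiO2 pool and 40.1 in the PBS pool by its brighter probe, a log2 difference of -0.85 (-0.013 with normexp), and its other probe gave 0.53. The direction of Retn therefore depended on the probe. The next genes outward, Trat1 (-0.35) and Dzip3 (-0.31), were within 2-fold. These relatives and neighbours were named after their values were seen.

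**Figure D2:**
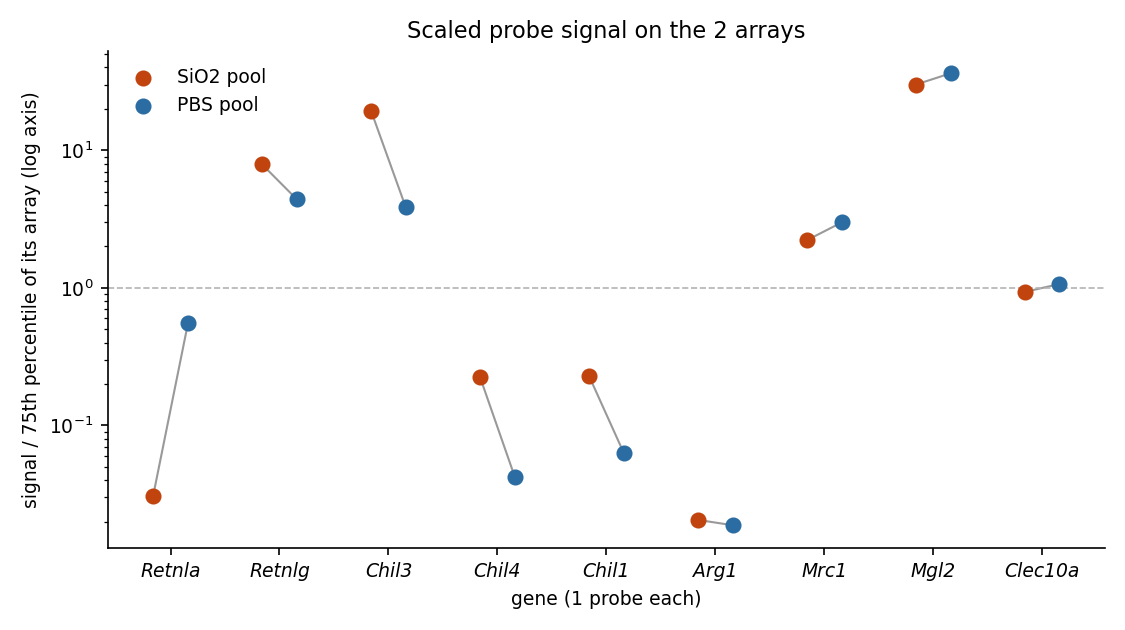
Probe signal divided by the 75th percentile of its array (log axis) for the 9 genes, with the SiO2 pool (red) left of the PBS pool (blue); each point is 1 spot on 1 array, a grey line joins the pair, and the dashed line marks the 75th percentile. The steepest lines are those of Retnla, lower in SiO2, and of the 3 chitinase-like genes, higher in SiO2; heights of different genes come from different probes and cannot be compared.

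Chitinase-like proteins keep the fold of chitin-digesting enzymes but have lost the activity. Chil3 encodes Ym1, a lectin secreted by alternatively activated macrophages and stored by maturing neutrophils in mice. Its signal was 9114 in the SiO2 pool and 2570 in the PBS pool. This was a log2 difference of 2.34 (5.06-fold higher), with a software error of 0.20, or a ratio of 3.55 before scaling. Both signals were far above background, and of the 4 genes past 2-fold Chil3 had the narrowest range over the 9 listed alternatives, from 2.27 to 2.34.

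Chil4 encodes Ym2, a close relative of Ym1 best known from the allergic mouse lung. Its signal was 106 in the SiO2 pool and 28.3 in the PBS pool, a log2 difference of 2.42 (5.33-fold higher) with a software error of 0.22. Both spots were dim. The PBS spot read 51.0 before subtraction over a local background of 12.0, and with normexp the difference was 1.43. Chil3 and Chil4 messages are near-identical and the files used here do not give the probes' letters, so how much of the Chil4 signal came from Chil3 message was not tested.

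Chil1, the mouse counterpart of a human cartilage glycoprotein made by macrophages and neutrophils, had signals of 108 in the SiO2 pool and 42.3 in the PBS pool. The log2 difference was 1.86 (3.64-fold higher), with a software error of 0.21, or a ratio of 2.55 before scaling. With normexp it was 1.15. Chil1 and Chil4 were past 2-fold under all 8 listed alternatives that gave them a value, the authors' deposited table holding neither. These 8 include the alternatives that could not change the value of either gene.

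Chil3 and Chil4 are neighbours on chromosome 3 with 0 protein-coding genes between them, and their differences, 2.34 and 2.42, lay within the software error of each other. Their upstream sequences are shown for the likeness of the pair, in the same way as above.
Chil3 (chr3:106167565-106167814, minus strand): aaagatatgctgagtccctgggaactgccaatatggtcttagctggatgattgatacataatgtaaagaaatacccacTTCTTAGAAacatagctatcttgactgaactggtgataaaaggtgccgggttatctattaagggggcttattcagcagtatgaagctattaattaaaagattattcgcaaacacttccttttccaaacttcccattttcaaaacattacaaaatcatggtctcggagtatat
Chil4 (chr3:106219480-106219729, minus strand): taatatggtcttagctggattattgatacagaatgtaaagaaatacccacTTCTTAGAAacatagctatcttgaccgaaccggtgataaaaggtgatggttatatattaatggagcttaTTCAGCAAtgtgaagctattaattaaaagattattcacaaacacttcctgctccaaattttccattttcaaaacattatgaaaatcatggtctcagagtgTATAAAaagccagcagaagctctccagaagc

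The best local alignment of this pair held 201 identical bases in 222 columns (90.5%). It paired Chil3 bases -221 to -1 with Chil4 bases -249 to -29. Both held TTCTTAGAA, a match to the STAT letters with the half-sites 3 apart, TTCNNNGAA, at -172 to -164 in Chil3 and -200 to -192 in Chil4, and 7.02% of all promoters held it. No other of the 7 promoters did, and TTCNNNNGAA was in neither window of this pair. Chil4 also had a C/EBP match at -131 to -124 and TATAAA at -31 to -26. The alignment ended at Chil4 base -29, inside this TATAAA, so the Chil3 window did not reach all of it and its absence there was not compared. None of these motif letters occurred in the windows of Chil1, Mrc1 and Mgl2.

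The other chitinase family genes beside this pair did not share its size. Chia1, the acidic chitinase, next to Chil3, had signals of 17.2 in the SiO2 pool and 12.3 in the PBS pool, a log2 difference of 0.99. Chil6, next to Chil4, had signals of 8.93 in SiO2 and 13.04 in PBS, a log2 difference of -0.03. Chit1, the macrophage chitotriosidase and the neighbour of Chil1 on chromosome 1, passed background on the SiO2 array but not on the PBS array. Its signals were 9.43 in SiO2 and 8.20 in PBS, a log2 difference of 0.71 (1.64-fold). It was 0.475 with normexp and 0.52 in the authors' deposited table. All of these spots were dim, and they were named after their values were seen. Outside the family, Dennd2d beyond Chil6 was at -0.44. Among 15 family relatives of the 9 genes, 13 were above background on at least 1 array. Of these, 0 were at least 2-fold higher or lower, beside 10.3% of all named genes, and their median log2 difference was 0.12. Ovgp1 (0.12), a chitinase-like oviduct glycoprotein, and Pla2r1 (-0.12, or 0.08 with normexp), a phospholipase receptor related to Mrc1, lay nearest the median.

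Arg1 splits arginine into ornithine and urea, in the liver as part of the urea cycle and in alternatively activated macrophages. Its signal was 9.66 in the SiO2 pool and 12.6 in the PBS pool, or 1.57 times the lowest signal above background on the SiO2 array and 1.71 times that on the PBS array. The log2 difference was 0.13 with a software error of 0.33, so the pools differed by less than the technical error. It was 0.27 with normexp and lay on the other side of 0 with quantile normalization (-0.05), cyclic loess (-0.06) and the authors' deposited table (-0.05). A difference of Arg1 was not detectable at this signal.

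Of 19 genes of arginine and polyamine metabolism, 16 were above background on at least 1 array (median -0.28, or 0.08 with normexp). Of these, 1 was past 2-fold on the higher side and 0 on the lower, beside 6.62% and 3.69% of all named genes. The one past 2-fold was Azin1, the antizyme inhibitor that keeps ornithine decarboxylase active, with signals of 1460 in the SiO2 pool and 929.5 in the PBS pool and a log2 difference of 1.16, or as little as 0.86 by its other probes. Nos2, the inducible nitric oxide synthase that competes with arginase for arginine and marks classical activation, was at -0.43, with signals of 23.7 in SiO2 and 45.6 in PBS. The mitochondrial arginase Arg2 was at -0.86, with signals of 9.51 in SiO2 and 24.7 in PBS. Both spots were dim. With normexp Nos2 was at 0.17 and Arg2 at 0.19, close to the median of all named genes in that setting, 0.18. In the authors' deposited table Arg2 was past 2-fold, at -1.03. Odc1, ornithine decarboxylase, was at 0.64 by the probe used here and at up to 1.79 by its others. Nos2, Arg2 and Odc1 were named after their values were seen. Of the hepatocyte markers 7 of 9 were above background on at least 1 array, with a median of -0.04 (0.34 with normexp) and 0 past 2-fold.

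The 3 lectin receptors were all within 2-fold, on the lower side of 0 in the SiO2 pool after scaling to the 75th percentile and on both sides of it when cell type markers were set to 0. Mrc1, the mannose receptor, had signals of 1039.9 in SiO2 and 1999 in PBS, a log2 difference of -0.43. Mgl2, a galactose-type lectin of macrophages and dendritic cells, had signals of 14079 in SiO2 and 24260.4 in PBS, a log2 difference of -0.27. Clec10a, its paralogue and direct neighbour on chromosome 11, had signals of 437.5 in SiO2 and 714 in PBS, a log2 difference of -0.19. The software error of each difference was 0.20, so that of Clec10a lay within it, that of Mgl2 was 1.34 times it and that of Mrc1 2.11 times it.

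Their direction thus depended on the scaling. With the B and T cell markers brought to a median of 0, Mrc1 was at -0.04, Mgl2 at 0.12 and Clec10a at 0.20, and with the macrophage markers at 0 they were at 0.17, 0.33 and 0.41. Under the listed alternatives all stayed below 0, from -0.49 to -0.42 for Mrc1, -0.39 to -0.27 for Mgl2 and -0.25 to -0.17 for Clec10a. Asgr1 (0.39) and Asgr2 (-0.26, or 0.06 with normexp), the related asialoglycoprotein receptor genes beside Mgl2, were within 2-fold as well.

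**Figure D3:**
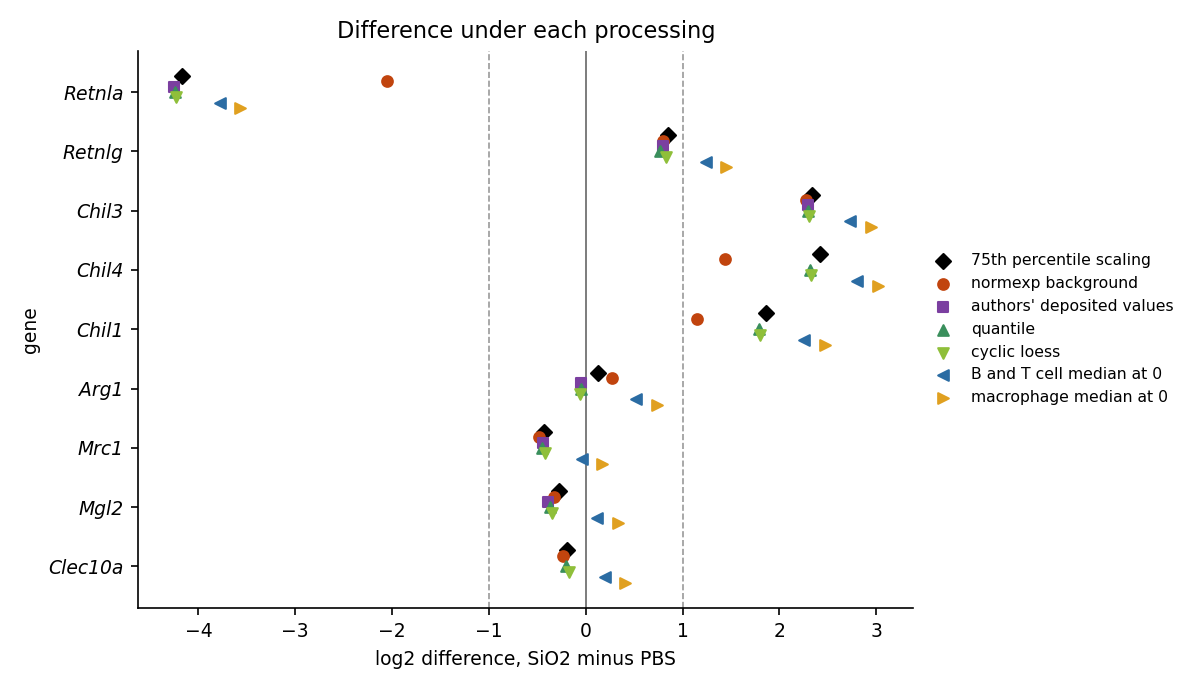
Log2 difference (SiO2 minus PBS, horizontal axis) of each of the 9 genes under 7 processings, 1 marker each; dashed lines mark 2-fold. Retnla stays left of the lower line and Chil3, Chil4 and Chil1 right of the upper line throughout, Arg1 falls on both sides of 0, and the lectin receptors cross 0 when cell type markers are set to 0; Chil4, Chil1 and Clec10a have no value in the authors' table.

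For the pathway that induces several of these genes, message was measured, and not activity. The list held 24 genes of type 2 cytokines, receptors and signal carriers, of which 22 were above background on at least 1 array. At 2-fold, 1 was higher and 0 lower, beside 6.62% and 3.69% of all named genes. The median log2 difference of the list was -0.36, or -0.09 with normexp. The gene past 2-fold was Il1rl1, the receptor for interleukin-33 on mast cells, regulatory T cells and other type 2 cells, with signals of 2197 in SiO2 and 1168 in PBS (log2 difference 1.42). The cytokine Il4 had signals of 36.4 in SiO2 and 69.5 in PBS, a log2 difference of -0.42. With normexp it was at 0.015, where the median of all named genes was 0.18. Il13 was above background in the PBS pool only, with signals of 4.95 in SiO2 and 8.38 in PBS before scaling. With its SiO2 value raised to the lowest signal above background, the log2 difference was 0.06 at most. It was 0.35 with normexp. The receptor chain Il4ra was at -0.86, or -0.15 by its other probe, and Stat6 at -0.18. Il4, Il13, Il4ra and Stat6 were named for their place in the pathway after their values were seen.

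Of 30 other genes reported in alternative activation, 29 were above background. At 2-fold, 3 were higher and 3 lower, beside 6.62% and 3.69% of all named genes, and the median was -0.07. Those higher were Mmp12, the macrophage elastase (signals of 103 in SiO2 and 15.9 in PBS, log2 difference 3.20), Trem2, a lipid-sensing receptor (1056 in SiO2 and 193 in PBS, 2.96), and F13a1, the coagulation factor XIII subunit (1145 in SiO2 and 799.7 in PBS, 1.03). Those lower were Socs1, a feedback inhibitor of cytokine signalling (255 in SiO2 and 1659 in PBS, -2.19), the chemokine Ccl24 (18.0 in SiO2 and 86.8 in PBS, -1.76) and the adhesion molecule Cdh1 (32.0 in SiO2 and 95.6 in PBS, -1.07). With normexp F13a1 (0.89), Ccl24 (-0.54) and Cdh1 (-0.31) were within 2-fold, as was F13a1 by its other probe (0.92), and Mmp12 was at 1.60. Lists of this kind were drawn up with earlier results of these arrays known, so their counts are no independent evidence.

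Markers of several cell types differed between the same pools. Their counts stand beside the shares over all named genes, 6.62% at least 2-fold higher and 3.69% lower. Neutrophil markers had 15 of 16 listed genes measured, of which 10 were higher by at least 2-fold and 0 lower, and their median was 1.58. Their summed scaled signal, in units of the 75th percentile, was 263 in the SiO2 pool and 146 in the PBS pool, and Ngp (3.13), Ltf (2.96) and Fcnb (2.50, or 1.34 with normexp) differed most. Within 2-fold were S100a8 (0.93), Mmp9 (0.85), S100a9 (0.39), Csf3r (0.13) and the receptor Cxcr2 (-0.80, or -0.36 with normexp), all named after their values were seen. The authors' deposited table held 11 of the neutrophil genes, with 5 higher and a median of 0.94. Chil3 lay 0.76 above the median of 1.58, Chil4 0.83 above, Chil1 0.28 above and Retnlg 0.74 below it (-0.74). The part of neutrophil number in the values of these 4 genes was not tested. Eosinophil markers had 9 of 9 measured, with 3 higher (Epx 2.76, Prg2 2.44, Ear6 1.16), 1 lower (Ccr3 -1.02) and a median of 0.37, and summed to 8.60 in SiO2 and 7.62 in PBS. With normexp Ear6 (0.95) and Ccr3 (-0.81) were within 2-fold, and Epx was at 1.15.

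Macrophage and dendritic cell markers were lower on balance after scaling to the 75th percentile, as were B and T cell markers (median -0.39). Of 13 pan-macrophage and monocyte markers 11 were measured, with 0 higher and 2 lower, Fcgr1 (-2.01) and Aif1 (-1.50), and a median of -0.60. Their summed scaled signal was 37.3 in SiO2 and 65.8 in PBS, and 2 of the 11 lay above 0, Itgam (0.59) and Lyz2 (0.45). Of 10 red pulp and marginal zone macrophage markers 3 were lower, Siglec1 (-1.52, or -0.77 with normexp and -0.94 by its other probe), Spic (-1.49) and Cd5l (-1.22), with a median of -0.49 and sums of 55.7 in SiO2 and 82.95 in PBS. The 9 markers of type 2 dendritic cells had 1 lower, Cd1d1 (-1.19, or -0.80 by its other probe), with a median of -0.57 and sums of 18.5 in SiO2 and 29.2 in PBS. With the B and T cell markers brought to 0, a shift chosen after the data were seen, these medians were nearer 0. They were then -0.21 for pan-macrophage, -0.10 for red pulp and marginal zone and -0.18 for type 2 dendritic cell markers. Relative to the pan-macrophage median Mrc1 was 0.17 higher, Mgl2 0.33 and Clec10a 0.41, while Retnla was 3.57 below it (-3.57). The part of macrophage and dendritic cell number in these values was not tested.

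Further lists covered cells in which Retnla is also known and tissue that borders the spleen. Serous cavity macrophage markers had 10 of 10 measured and 1 lower, Prg4 (-4.19 by its brighter probe, or -2.45 with normexp, and 0.74 by the other), with a median of -0.30 (-0.14 with normexp). The defining factor of those cells, Gata6, had signals of 137 in SiO2 and 294 in PBS (-0.58, or -0.37 with normexp). The 3 genes of the list above 0 were Folr2 (0.57), F5 (0.495) and Lyve1 (0.49). Gata6 and these were named after their values were seen. The summed signal of the list was 6.20 in SiO2 and 9.92 in PBS. Mesothelial markers, of the layer that covers the spleen, had 9 of 10 measured and 7 at least 2-fold lower, led by Msln (-5.30), Upk3b (-5.09) and Lrrn4 (-4.08), with a median of -3.82 and sums of 0.912 in SiO2 and 5.58 in PBS. Of the 9, 4 were above background in the PBS pool only, so their differences are bounds, and the median is 1 of these bounds. With normexp 5 were lower, the median was -1.08, and Msln was at -3.95, Upk3b at -2.37 and Lrrn4 at -1.64. Adipocyte markers had 9 of 10 measured, with 2 higher, Slc2a4 (2.45) and Adipoq (at least 4.31-fold), and a median of 0.55, their sum being 11.2 in SiO2 and 8.19 in PBS. With normexp Adipoq was within 2-fold (0.76), which left 1 higher, and in the authors' deposited table it was at 1.94. Most of both sums came from Slc2a4 (3006 in SiO2 and 783 in PBS) and Pnpla2 (2111 in SiO2 and 4524 in PBS). Before scaling, Plin1 (11.7 in SiO2 and 11.3 in PBS), Plin4 (42.8 and 41.8) and Cidec (9.01 and 9.25) were nearly equal. The 3 adipocyte markers below 0 were Retn (-0.85), Pnpla2 (-0.59) and Lipe (-0.09). These were named after their values were seen. Sinusoidal and lymphatic endothelial markers, which bear on Mrc1, had 9 of 10 measured, 0 past 2-fold and a median of -0.03 (sums of 12.9 in SiO2 and 17.0 in PBS). The part of any of these tissues in the value of Retnla was not tested.

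**Figure D4:**
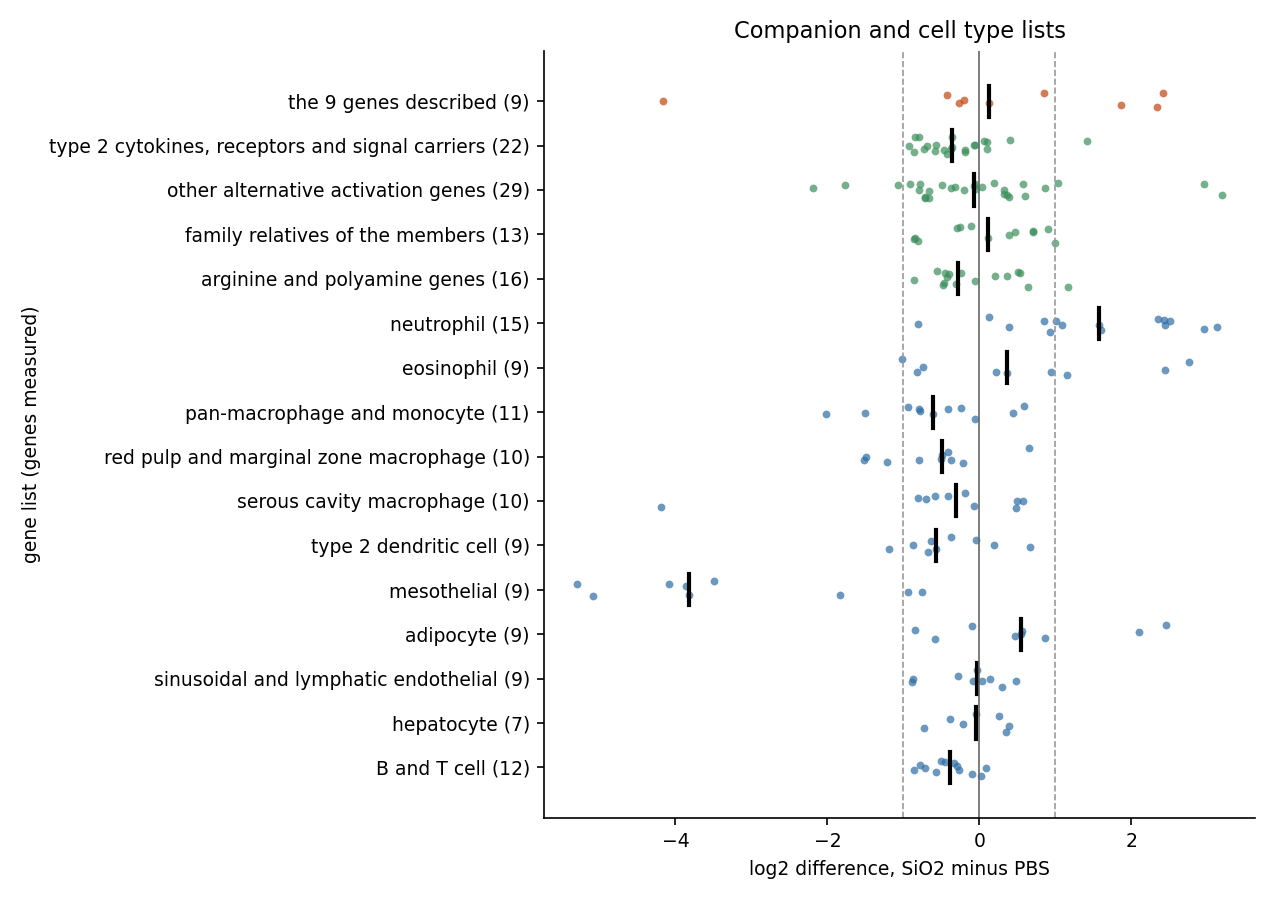
Log2 difference (SiO2 minus PBS, horizontal axis) of every measured gene of the 9 described (red), of 4 companion lists (green) and of 11 cell type lists (blue); black bars are medians, dashed lines mark 2-fold, and vertical scatter within a row is for display. The neutrophil list has a median of 1.58, the pan-macrophage list -0.60 and the mesothelial list -3.82 (a bound), while the 9 genes spread from -4.17 to 2.42.

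For the 3 genes past 4-fold, the genes with the nearest pair of scaled log2 values over the 2 arrays were looked up among 15896 other genes above background on both. Nearest to Retnla were Nkain4 (distance 0.38, log2 difference -3.68), Prg4 (0.68, -4.19) and Gbp2b (0.77, -3.69). Nearest to Chil3 were the red cell genes Ermap (0.19, 2.08) and Kel (0.36, 2.17) and the glycine transporter Slc6a9 (0.22, 2.14). Nearest to Chil4 were Lox (0.093, 2.51), Cd59b (0.18, 2.32) and Ptn (0.19, 2.37). With 1 array a group, such likeness describes a pair of values and no pattern over samples.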

How the data were processed

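RNA of pooled spleens was hybridised to 1 array per group, so array, slide and group cannot be told apart. A kit for blood with separate lysis of red and white cells gave the RNA, which was depleted of globin and labelled with Cy3, per the labels' protocols. The deposited intensity values, background-subtracted per the file headers, were made with Feature Extraction 11.0.1.1; the submitters' processing notes give version 9.1. The authors' deposited table holds log2 values of 26049 probes (medians of 5.68 in both columns), and how it was normalized is not stated in any label or header.

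Control spots and outlier flags were dropped and 0 spots were saturated. Probe accessions were matched to RefSeq symbols of GRCm38.p6 for 27217 of 39398 probes. Each gene took the brightest probe that passed background on either array; a value not above background was raised to the lowest above background if under it, and the fold is then a bound.

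The text names all 9 members, list genes past 2-fold (up to 4 a direction in companion lists, 3 in cell type lists) or else the 2 nearest the median, and the 3 nearest genes of members past 4-fold. Members, lists and alternatives were chosen with earlier results of these data known. Normexp (limma 3.58.1, R 4.3.3, offset 50) used the median spot signal, since the files hold no mean signal. The gene summary was tested on simulated data.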

Additional observations from a re-analysis of the deposited data

How the results depend on the processing

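The counts of members past 2-fold on the higher side (3) and the lower side (1) did not move under 8 of the 9 listed alternatives. The exception was the authors' deposited table, which gave 1 higher and 1 lower because it holds only 6 of the 9 members. Dropping the filter and floor, requiring background on both arrays and averaging a gene's probes could not move any member. Each member had 1 matched probe with 1 spot, above background on both arrays. Keeping outlier spots barely moved them (Retnla at -4.175, Chil3 at 2.333). The other alternatives were normexp, the authors' table, quantile normalization, cyclic loess and scaling to the array median. The median log2 difference of the members, 0.13, lay on a gene near 0 and moved: it was 0.27 with normexp, -0.22 in the authors' table, -0.051 with quantile normalization and -0.058 with cyclic loess. With the B and T cell markers or the macrophage markers set to a median of 0, both added after the data were seen, it was 0.52 and 0.73, and 4 members were higher and 1 lower. Over all named genes, 1110 were past 2-fold on the higher side and 619 on the lower. Normexp gave 655 and 258, with the median of all genes at 0.18 in place of 0.03, and the authors' table gave 666 higher and 530 lower among fewer genes. Setting B and T cell markers to 0 gave 2522 and 255, and setting macrophage markers to 0 gave 4161 and 154. Signal over background limits Arg1 on both arrays, Retnla in SiO2 and Chil4 and Chil1 in PBS. No paired analysis was possible because each group has 1 array, and no replicate could be left out.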
